A study of Mus musculus with 6 samples.

Results

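The genes described here encode the autophagy and mitophagy machinery of mouse gastrocnemius muscle, and were followed in DGAT1 transgenic mice and WT mice. A list of 41 genes was set by name. A gene was taken where a probe set carried its symbol alone, and where several probe sets did, the probe set with the highest mean over the 6 arrays was used. This gave 38 measured genes of 22180 genes with such a probe set. The 3 genes without one were Optn, Park2 and Bnip3l. The probe set of Bnip3l also lists the pseudogene Bnip3l-ps, and on it the log2 values were 11.09, 11.05 and 11.07 in transgenic mice and 11.11, 11.06 and 11.04 in WT mice.

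Muscle RNA was measured on the Mouse Gene 2.0 ST platform of Affymetrix, with a separate array for each animal. The transgenic group held 3 mice and the WT group 3 mice, all males of 3 months on a background that the labels give as C57 and the methods as C57BL/6. The methods describe the transgenic mice as F1 offspring of founders that carry a porcine DGAT1 cDNA under the porcine MCK promoter, which is active in muscle fibers, and both groups ate a chow diet. The sample labels instead call these animals DGAT1 knockouts, and the number of founder lines is not given in the sources used here. Mouse Dgat1 measured 8.09, 7.65 and 7.73 (log2) in transgenic mice and 7.96, 7.26 and 7.79 in WT mice, and the groups overlapped. Mouse probes need not bind a porcine cDNA or lie in a deleted part of the gene, so these values do not settle which description holds. The muscle fiber markers, such as Acta1 and Ckm, had mean log2 values of 12.52 to 12.66 in transgenic mice and 12.66 to 12.73 in WT mice. The arrays are of whole tissue, in which fewer cells of a type and less RNA per cell cannot be told apart.

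Autophagy encloses cytoplasm in a double membrane, the autophagosome, and delivers it to the lysosome for breakdown. A kinase complex around ULK1 starts the process, a lipid kinase complex around VPS34 marks the membrane, and a ubiquitin-like conjugation system attaches proteins of the Atg8 family to it. Receptors that bind these proteins bring in cargo, and in mitophagy the cargo is the mitochondrion. In skeletal muscle the pathway clears damaged mitochondria and protein aggregates, and fasting and denervation are known to raise it.

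Many autophagy and lysosome genes are targets of TFEB, a transcription factor that binds the E-box CACGTG, and 3 stretches of promoter with that motif in capitals are shown because they belong to the member with the highest fold change, the member with the lowest, and the lysosomal membrane gene with the most copies. They come from RefSeq on GRCm38.p6, read 5′ to 3′ along the gene, and end upstream of the annotated start.
Atg3: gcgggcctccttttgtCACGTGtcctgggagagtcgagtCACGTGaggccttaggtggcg
Bnip3: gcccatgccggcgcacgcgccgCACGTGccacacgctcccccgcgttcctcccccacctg
Lamp1: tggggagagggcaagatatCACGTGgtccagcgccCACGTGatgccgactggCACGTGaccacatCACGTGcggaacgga
The stretch of Atg3 lies at chr16:45158719-45158778 on the + strand, that of Bnip3 at chr7:138909577-138909636 on the - strand and that of Lamp1 at chr8:13159081-13159160 on the + strand. The motif is its own reverse complement, so 1 search covers both strands. Of the 38 measured genes 32 had a RefSeq promoter window, which runs from 250 bases before the start to 50 bases after it. The 32 genes had 37 windows, and the motif occurred in 6 of them (16.2%), 1 each for Atg3, Atg5, Atg7, Atg14, Bnip3 and Lamp1, and in 7.15% of all 32851 windows. The longer form TCACGTGA, which contains the shorter motif, was found in Atg3 alone and in 0.974% of all windows. The 6 genes did not share a direction in the transgenic mice, with log2 fold changes of 0.28 for Atg3, 0.12 for Atg5, 0.00 for Atg7, -0.13 for Atg14, -0.29 for Bnip3 and 0.05 for Lamp1. A motif match is a description of the sequence and not a measured binding site.

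None of the 38 genes differed between transgenic and WT mice by limma's moderated test adjusted over all 41345 probe sets, where 0 probe sets (0%) had an adjusted p under 0.05. Neither did any pass the study threshold, an unadjusted p under 0.05 with at least a 1.5-fold change, which 1.49% of all probe sets (0.859% higher and 0.636% lower in transgenic mice) and 0.574% of those with 1 gene symbol passed. At an unadjusted p under 0.05 alone there were 0 members, against 2.9% of all probe sets, and the methods' t-test also gave 0. Fold changes ran from 0.819 for Bnip3 to 1.21 for Atg3, and the smallest unadjusted p was 0.176. The adjusted p from limma was 1 for each of the 38 genes.

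The intervals show how large a difference these arrays could have missed. For 32 of the 38 genes the 95% interval of the fold change lay within 1.5-fold in either direction, compared with 43.7% of all probe sets and 63.8% of those with 1 gene symbol and a mean at or above the median level. The 6 genes whose interval reached beyond it were Ulk1, Ulk2, Atg2a, Atg4d and Bnip3 on the lower side and Atg3 on the upper side. The widest bounds were 0.599 of the WT level and 1.73 times the WT level. Standard errors of the log2 fold change ranged from 0.13 to 0.22, and for 5 genes the log2 fold change was larger than its standard error.

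**Figure D1:**
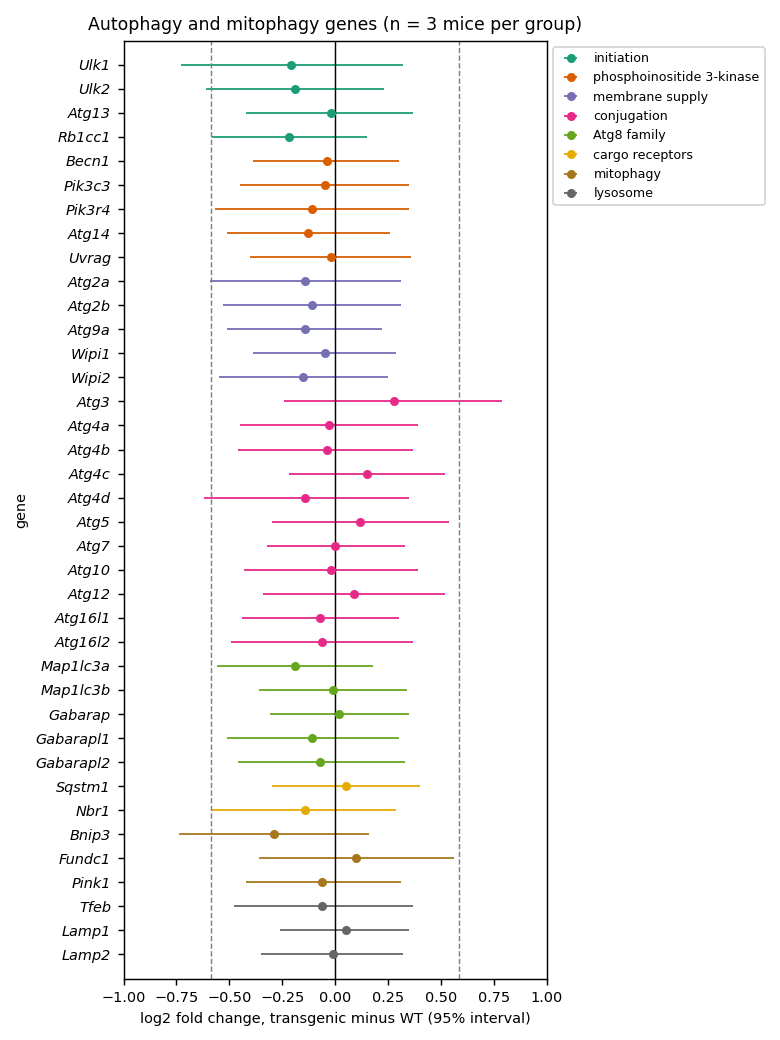
Log2 fold change of transgenic over WT mice for the 38 genes, grouped by role, with 95% intervals from limma (n = 3 mice per group) and dashed lines at a 1.5-fold change. Every interval includes 0, and that of Bnip3 reaches lowest, to -0.74, while that of Atg3 reaches highest, to 0.79.

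Among the genes that start autophagosome formation, all 4 had lower means in transgenic mice, with a median log2 fold change of -0.20. Lower means were also found for 54.7% of the probe sets with 1 gene symbol and a mean at or above the median level. Without WT replicate 1 Atg13 had a higher mean (0.09). Ulk1, the kinase that starts the process, measured 9.30, 9.27 and 9.24 (log2) in transgenic mice and 9.81, 9.01 and 9.61 in WT mice. The 3 transgenic values lay close together inside the WT range, and WT replicate 2 was the lowest of all 6. The log2 fold change was -0.21 (standard error 0.22). It was -0.04 without WT replicate 1 and -0.44 without WT replicate 2. Without WT replicate 2 the unadjusted p from limma was 0.0222 and the adjusted p 0.816, and the change was still under 1.5-fold. In that setting 1 of the 38 genes and 2417 of all 41345 probe sets had an unadjusted p under 0.05.

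Ulk2, its close relative, had 9.21, 9.11 and 9.01 in transgenic mice and 9.56, 9.03 and 9.30 in WT mice, and the groups overlapped through WT replicate 2. Rb1cc1, which encodes the scaffold FIP200 of the kinase complex, had 8.74, 8.70 and 8.63 in transgenic mice and 9.13, 8.76 and 8.85 in WT mice. It was the 1 member of 38 whose groups did not overlap, a share of 2.63%, whereas 7.21% of all probe sets and 7.38% of those with 1 gene symbol had no overlap. Its log2 fold change was -0.22 (standard error 0.15), with a 95% interval of -0.58 to 0.15. It was -0.11 without WT replicate 1, the highest animal. Atg13, the adaptor of the complex, averaged 9.08 ± 0.05 in transgenic and 9.10 ± 0.24 in WT mice (SD, n = 3 each).

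The 5 genes of the phosphoinositide 3-kinase complexes also had lower means in transgenic mice, with a median log2 fold change of -0.05. Without WT replicate 1 all 5 had higher means instead, from 0.01 for Atg14 to 0.07 for Pik3c3 and Pik3r4. Pik3c3, which encodes the lipid kinase VPS34, had a log2 fold change of -0.05, and its regulatory subunit gene Pik3r4 had -0.11. Becn1, which encodes the scaffold beclin 1, averaged 7.61 ± 0.06 in transgenic and 7.65 ± 0.16 in WT mice (SD, n = 3 each). Atg14 (-0.13) and Uvrag (-0.02) encode alternative partners that direct the complex to the forming autophagosome and to endosomes. Of the 5 genes, all had their highest value in WT replicate 1.

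The genes for membrane supply had a median log2 fold change of -0.14, with lower means in transgenic mice for all 5. Without WT replicate 1 the values ran from -0.09 for Atg9a to 0.02 for Atg2b. The lipid transfer protein genes Atg2a and Atg2b had -0.14 and -0.11, the lipid scramblase gene Atg9a had -0.14, and the phosphoinositide-binding protein genes Wipi1 and Wipi2 had -0.05 and -0.15. Each of these values was smaller than its standard error of 0.14 to 0.19. Atg2a had its lowest value, 6.87, in transgenic replicate 2, where the other transgenic mice had 7.35 and 7.28 and the WT mice 7.54, 7.15 and 7.24.

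The conjugation system was mixed, with 5 of 11 genes higher and 6 lower by their means in transgenic mice and a median log2 fold change of -0.02. Atg3, the E2-like enzyme that joins Atg8 proteins to phosphatidylethanolamine, measured 8.32, 8.16 and 8.80 (log2) in transgenic mice and 8.37, 7.92 and 8.17 in WT mice. Transgenic replicate 3 stood above the other 5 animals, and the remaining transgenic values lay inside the WT range. The log2 fold change was 0.28 (standard error 0.22), and it was 0.09 without transgenic replicate 3.

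Atg5, the target to which Atg12 is joined, had 7.48, 7.20 and 7.62 in transgenic mice and 7.51, 7.15 and 7.27 in WT mice, with the 2 ranges largely shared. Atg12, the ubiquitin-like protein of that conjugate, had 7.87, 7.72 and 7.80 in transgenic mice and 7.97, 7.40 and 7.75 in WT mice. For Atg12 the log2 fold change was 0.09 over all mice and -0.06 without WT replicate 2. Atg7, the E1-like enzyme of both conjugations, averaged 7.19 ± 0.11 in transgenic and 7.18 ± 0.03 in WT mice (SD, n = 3 each). Atg10, the E2-like enzyme for Atg12, had a log2 fold change of -0.02. Atg16l1, which places the conjugate on the membrane, had -0.07 and its paralog Atg16l2 had -0.06.

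The Atg4 proteases trim Atg8 proteins before conjugation and release them afterwards. Atg4c had 6.91, 6.89 and 6.67 in transgenic mice and 6.86, 6.58 and 6.57 in WT mice, and WT replicate 1 lay among the transgenic values (log2 fold change 0.15, standard error 0.16). Atg4d had 7.83, 7.62 and 7.70 in transgenic mice and 8.12, 7.46 and 8.0 in WT mice. All 3 transgenic values of Atg4d lay inside the WT range, with an SD of 0.11 in transgenic and 0.35 in WT mice, and the log2 fold change was -0.14. Atg4a and Atg4b had -0.03 and -0.04.

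**Figure D2:**
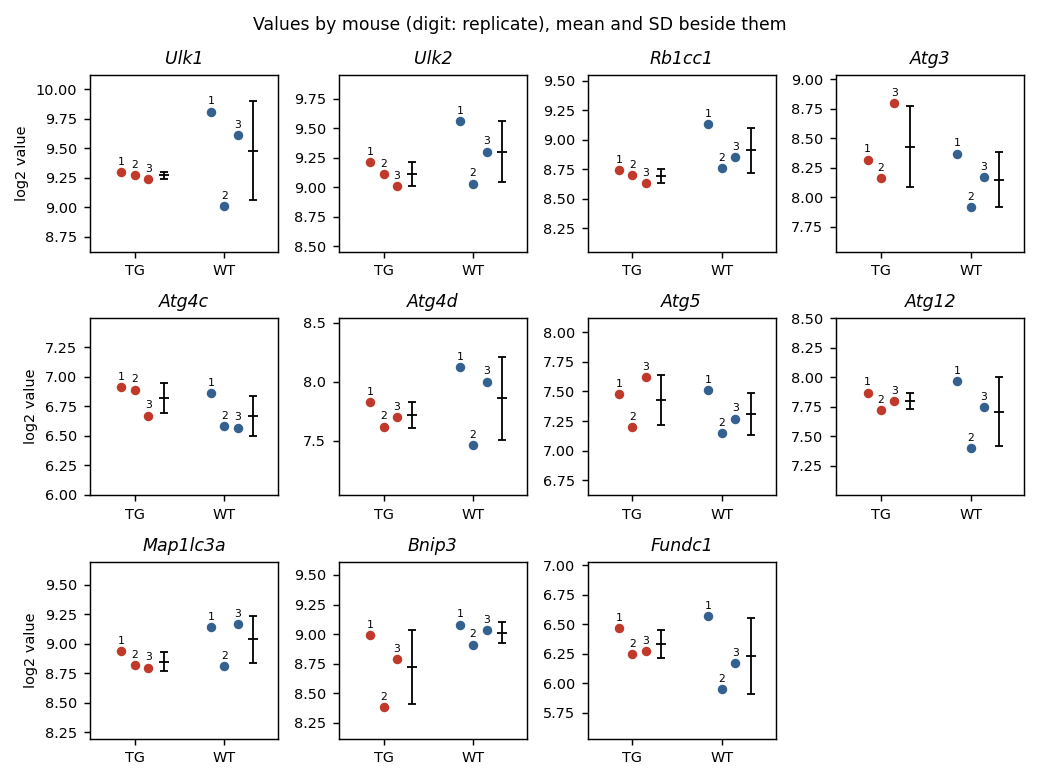
Log2 values of 11 genes in each mouse, with transgenic mice (TG, red) at the left and WT mice (blue) at the right of each panel, the replicate number above each point, and the mean ± SD of each group as a black bar (n = 3). Rb1cc1 is the 1 gene without overlap, and WT replicates 1 and 2 lie apart in Ulk1, where they had 9.81 and 9.01.

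The Atg8 family proteins coat the autophagosome membrane and are bound by the receptors. Map1lc3a had 8.94, 8.82 and 8.80 in transgenic mice and 9.14, 8.81 and 9.17 in WT mice. WT replicate 2 alone brought the groups to overlap, and the log2 fold change was -0.19 (standard error 0.16). It was -0.30 with array weights, which had an unadjusted p of 0.033 and an adjusted p of 0.289 from limma. In that setting 1 of the 38 genes and 6510 of all 41345 probe sets had an unadjusted p under 0.05. The weight was 5.15 for WT replicate 3 and 0.37 to 1.532 for the other arrays. Map1lc3b, the LC3 form most used as an autophagosome marker, averaged 11.51 ± 0.04 in transgenic and 11.53 ± 0.16 in WT mice (SD, n = 3 each). Gabarapl1 and Gabarapl2 had log2 fold changes of -0.11 and -0.07.

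Gabarap was the 1 member with 2 probe sets of its own, and they disagreed. The probe set with the higher mean had 11.65, 11.45 and 11.65 in transgenic mice and 11.61, 11.50 and 11.57 in WT mice, a log2 fold change of 0.02. The other had 10.36, 10.01 and 10.54 in transgenic mice and 10.26, 10.05 and 8.74 in WT mice, a log2 fold change of 0.62 (standard error 0.40). Without WT replicate 3 that log2 fold change was 0.15. The low value of WT replicate 3 on the second probe set was not seen on the first.

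Some probe sets of related genes, picked after their values were seen, were low in the same animal. Vmp1, which encodes an endoplasmic reticulum protein needed for autophagosome formation, had 7.86, 7.19 and 8.02 in transgenic mice and 7.96, 7.46 and 5.20 in WT mice. The value of 0.82 for its log2 fold change became -0.02 without WT replicate 3. Atp6v1g1, a subunit of the proton pump that acidifies lysosomes, had 8.17, 7.81 and 8.20 in transgenic mice and 7.93, 7.77 and 5.79 in WT mice on its second probe set. On its first, WT replicate 3 had 9.14 and was not the lowest animal. The cause of these low values was not tested.

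**Figure D3:**
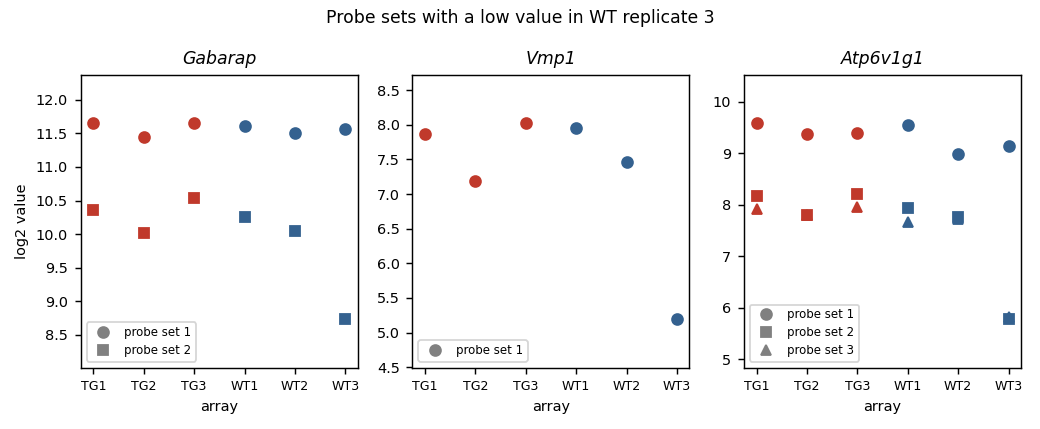
Log2 values of the single-symbol probe sets of Gabarap, Vmp1 and Atp6v1g1 by array, with transgenic mice (TG, red) left of WT mice (blue) and probe sets ranked by mean. WT replicate 3 lies at 8.74 on the second probe set of Gabarap, at 5.20 on Vmp1 and at 5.79 and 5.82 on the lower probe sets of Atp6v1g1.

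Of the cargo receptors, Sqstm1, which encodes p62 and binds ubiquitinated cargo, measured 11.68, 11.63 and 11.62 (log2) in transgenic mice and 11.75, 11.40 and 11.63 in WT mice. The transgenic values lay inside the WT range, with a log2 fold change of 0.05 and a 95% interval of -0.30 to 0.40. Nbr1, a related receptor, had -0.14 (standard error 0.18).

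Bnip3, an outer mitochondrial membrane receptor of mitophagy that hypoxia and FoxO3 are known to induce, had the lowest fold change of the 38 genes. Its log2 values were 8.99, 8.38 and 8.79 in transgenic mice and 9.08, 8.91 and 9.03 in WT mice. Transgenic replicate 2 was lowest and transgenic replicate 1 lay inside the WT range. The log2 fold change was -0.29 (standard error 0.19, 95% interval -0.74 to 0.16). It was -0.12 without transgenic replicate 2 and -0.42 without transgenic replicate 1.

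Fundc1, another receptor of the outer membrane, had 6.47, 6.25 and 6.27 in transgenic mice and 6.57, 5.95 and 6.17 in WT mice, with all transgenic values inside the WT range. Its log2 fold change was 0.10 over all mice and -0.04 without WT replicate 2. Pink1, the kinase that accumulates on damaged mitochondria and recruits parkin, averaged 10.80 ± 0.07 in transgenic and 10.86 ± 0.18 in WT mice (SD, n = 3 each). At the lysosome, Tfeb had a log2 fold change of -0.06. The lysosomal membrane genes Lamp1 and Lamp2 had 0.05 and -0.01, with Lamp1 at 11.28 ± 0.05 in transgenic and 11.23 ± 0.03 in WT mice (SD, n = 3 each).

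The genes varied more among WT mice than among transgenic mice, as most probe sets did. The median SD over the 38 genes was 0.10 in transgenic and 0.20 in WT mice, and for all probe sets it was 0.20 in transgenic and 0.25 in WT mice. For 28 of the 38 genes (73.7%) the SD was larger in WT mice, as it was for 62.1% of all probe sets and 68.2% of those with 1 gene symbol and a mean at or above the median level, where all 38 genes lie. All 3 transgenic values lay inside the WT range for 16 genes, or 42.1%, for 30.3% of all probe sets and for 35.6% of those at that level. The WT values lay inside the transgenic range for 2 genes (5.26%), for 14.1% of all probe sets and for 10.9% of those at that level.

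This spread followed the same animals from gene to gene. WT replicate 1 had the highest of the 6 values in 26 of the 38 genes (68.4%) and in 22.4% of all probe sets, and WT replicate 2 the lowest in 18 genes (47.4%) and in 21.6% of all probe sets. Both held at once for 8.87% of all probe sets, for 20% of those with 1 gene symbol at that level and for 14 genes (36.8%), among them Ulk1, Pik3c3, Atg14, Atg12, Map1lc3b, Sqstm1 and Lamp2. WT replicate 1 was above WT replicate 2 in 35 of the 38 genes, by a median of 0.35 on the log2 scale. For probe sets with 1 gene symbol at that level, this held in 10498 of 13624, with a median of 0.28. Among transgenic mice, replicate 1 was above replicate 2 in 34 genes, by a median of 0.14. The probe sets at that level had nearly the same median, 0.13, with replicate 1 above in 9867 of 13624.

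**Figure D4:**
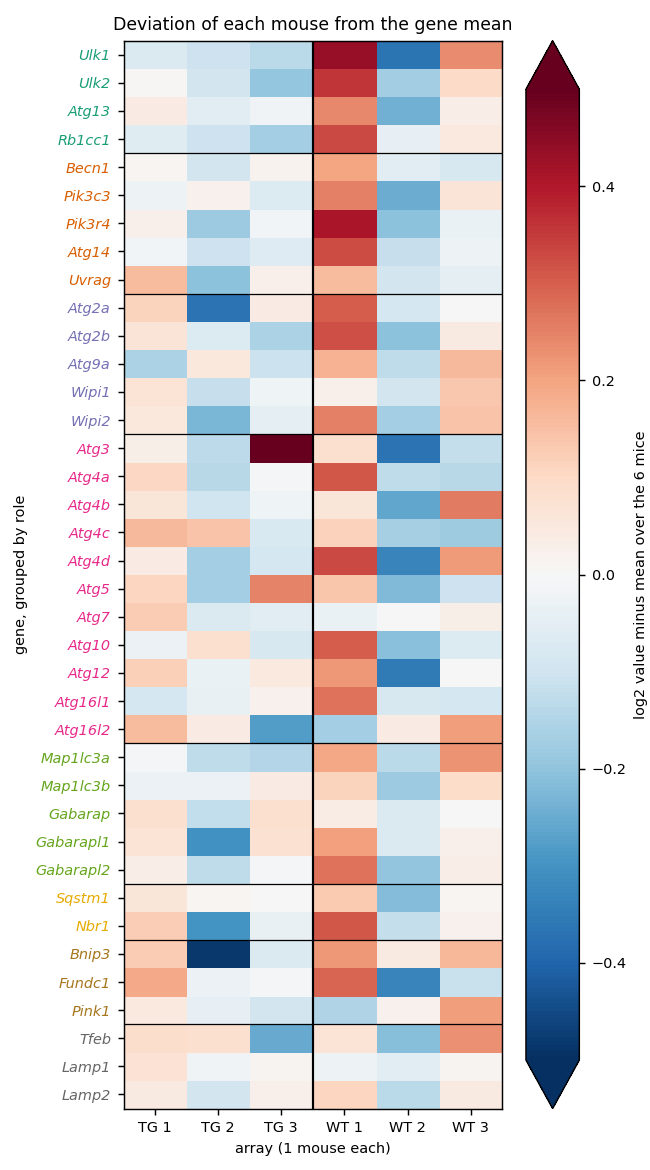
Log2 value of each mouse minus the mean over the 6 mice, for the 38 genes grouped by role (label colors, horizontal lines), with transgenic mice (TG) left of WT mice. Red is above and blue below the gene mean, and the column of WT replicate 1 is red and that of WT replicate 2 blue for most genes, with Pink1 and Atg16l2 among the exceptions.

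The same order was seen in other genes, to a smaller degree over the brighter probe sets with 1 gene symbol. In the lists of related genes read below, WT replicates 1 and 2 lay further apart than in the 38 genes, except for mitophagy and mitochondrial dynamics. Their mean deviations were 0.305 and -0.279 for the autophagosome fusion genes and 0.147 and -0.125 for the mitophagy and dynamics genes. On average over the 38 genes, the deviation from the gene mean was 0.050, -0.10 and -0.028 in transgenic replicates 1, 2 and 3 and 0.189, -0.156 and 0.046 in WT replicates 1, 2 and 3. For the 13624 probe sets with 1 gene symbol and a mean at or above the median level, the averages were 0.048, -0.067 and 0.014 in transgenic mice and 0.10, -0.117 and 0.022 in WT mice. Among those probe sets 39.4% were highest in WT replicate 1 and 41.8% lowest in WT replicate 2. Over all 41345 probe sets, the averages ran the other way in this pair, at -0.048 in WT replicate 1 and 0.044 in WT replicate 2. The arrays themselves differed in the same pair, with the lowest median and widest spread over probe sets in WT replicate 1 (5.706, SD 1.958) and the highest median and narrowest spread in WT replicate 2 (5.884, SD 1.823). After quantile normalization the averages over the 38 genes were 0.035, -0.074 and -0.039 in transgenic mice and 0.123, -0.084 and 0.038 in WT mice. The hepatocyte markers, such as Alb, did not follow this order, with mean log2 values of 8.35, 5.69 and 9.09 in transgenic mice and 9.14, 7.01 and 5.74 in WT mice.

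The count of genes with lower means changed with the animals included. Over all 6 mice 29 of the 38 genes had lower means in transgenic mice, with a median log2 fold change of -0.05, beside 51.2% and -0.01 for all probe sets. Without WT replicate 1, 17 genes had lower means and the median was 0.03, so its sign turned. Without transgenic replicate 2, 24 genes had lower means and the median was -0.01, and without WT replicate 3 these were 22 genes and -0.05. Without WT replicate 2, 33 genes had lower means and the median was -0.14.

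Markers of muscle fibers and of other cell types also differed in their means. All 8 muscle fiber markers had lower means in transgenic mice (median log2 fold change -0.07), as 29 of the 38 genes did. Higher means were seen for 7 of 8 macrophage markers, 7 of 8 hepatocyte markers, 6 of 7 adipocyte markers, 6 of 6 endothelial markers, 4 of 6 fibroblast markers and 3 of 3 Schwann cell markers. The mean over the Schwann cell markers was 7.91 to 8.02 in transgenic mice and 7.63 to 7.72 in WT mice, without overlap, while the list means of the other 5 types overlapped. All transgenic values lay above the WT values for 3 fibroblast, 3 macrophage and 2 Schwann cell markers, and for 2.9% of all probe sets. Col1a2, a collagen gene, was on the brighter of its probe sets past the study threshold with a log2 fold change of 0.87. The part of these cell types in the values of the 38 genes was not tested.

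**Figure D5:**
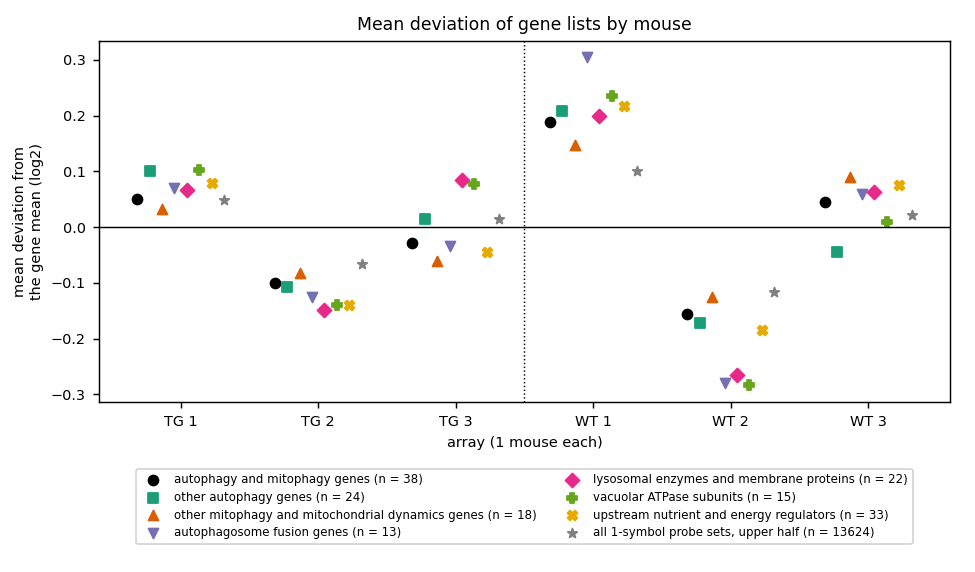
Mean deviation from the gene mean, on the log2 scale, for the 38 genes, 6 lists of related genes and the probe sets with 1 gene symbol at or above the median level, in transgenic mice (TG) left of WT mice. In the deposited values all lists are highest in WT replicate 1 and lowest in WT replicate 2, with the 38 genes at 0.189 and -0.156, but after quantile normalization the mitophagy and dynamics list is highest in WT replicate 3 and lowest in transgenic replicate 3, and the upstream list is lowest in transgenic replicate 2.

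Related genes outside the 38 were read from 6 lists, and 0 of their 125 measured genes passed the study threshold. For comparison, 51.2% of all probe sets and 54.7% of those with 1 gene symbol at or above the median level had lower means in transgenic mice. Of 24 other autophagy genes 16 had lower means (median log2 fold change -0.03). Fyco1, an adaptor that links autophagosomes to kinesin, had 9.83, 9.68 and 9.61 in transgenic mice and 9.91, 9.96 and 9.91 in WT mice. The groups did not overlap, and the log2 fold change was -0.22 with an unadjusted p of 0.154 from limma. Tmem41b, a scramblase of the endoplasmic reticulum, had 0.34, and Nrbf2, a subunit of the lipid kinase complex, had 0.22.

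Of 18 genes of mitophagy and mitochondrial dynamics 17 had lower means in transgenic mice, with a median log2 fold change of -0.07. Among all probe sets 51.2% had lower means, and the median was -0.01. Of the 18 genes 10 had their highest value in WT replicate 1 and 5 in WT replicate 3. The log2 fold changes of this list were small, the lowest being -0.21 for Tomm7, a subunit of the outer membrane translocase. Next came -0.17 for Mff, a receptor for the fission protein DRP1. Pgam5, a mitochondrial phosphatase, had -0.12. Of 13 genes for fusion of autophagosomes with lysosomes 9 had lower means (median -0.03), with -0.21 for the SNARE gene Vamp8, -0.23 for the tethering subunit gene Vps18 and -0.16 for the small GTPase gene Rab7.

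Lysosomal enzymes and membrane proteins showed no common direction, with 12 of 22 genes lower and 10 higher and a median log2 fold change of -0.01. Npc1, which exports cholesterol from lysosomes, had 9.26, 9.28 and 9.42 in transgenic mice and 10.37, 9.40 and 9.64 in WT mice. WT replicate 1 stood above the rest, and the log2 fold change was -0.48 with an unadjusted p of 0.103 from limma. The protease gene Ctsl had 0.21. In this list 1 gene had all transgenic values below WT and 1 had them above, which held for 4.31% and 2.9% of all probe sets. The lower one was Scarb2, the carrier of glucocerebrosidase to lysosomes, with 8.78, 8.44 and 8.71 in transgenic mice and 9.04, 8.78 and 8.82 in WT mice (log2 fold change -0.24), so that the groups stood apart by less than the rounding. The higher one was Psap, which encodes the precursor of the saposins and was named after its values were seen, with 12.21, 12.15 and 12.22 in transgenic mice and 12.12, 11.87 and 12.09 in WT mice, a log2 fold change of 0.17 with a standard error of 0.14. Macrophages are rich in lysosomes, and 7 of 8 macrophage markers had higher means in transgenic mice. Most hepatocyte, adipocyte, endothelial, fibroblast and Schwann cell markers also had higher means. The mean over the macrophage list was 7.61 to 8.06 in transgenic mice and 7.41 to 7.70 in WT mice. Of the macrophage markers, Cd68, a lysosomal glycoprotein, was past the study threshold (log2 fold change 0.64). The part of these cell types in the lysosomal values was not tested.

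Of 15 vacuolar ATPase genes 9 had higher means in transgenic mice (median log2 fold change 0.08), and 1 had an unadjusted p under 0.05. This was Atp6v1f, with 5.61, 5.99 and 5.80 in transgenic mice and 6.36, 6.33 and 6.00 in WT mice. The nearest values of the groups were 5.99 in transgenic and 6.00 in WT mice, and the log2 fold change was -0.43 (standard error 0.18, unadjusted p = 0.0435, limma's adjusted p = 1). Leaving out 1 array gave -0.55 to -0.34, and the unadjusted p from limma was 0.0954 to 0.142 without transgenic replicate 1 or 3 or WT replicate 1 or 2. Atp6ap2, an accessory subunit, had 0.27, and the first probe set of Atp6v1g1 had 0.22.

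Among 33 upstream regulators of nutrient and energy sensing 20 had lower means in transgenic mice (median log2 fold change -0.05). Sesn1, a stress-induced inhibitor of mTORC1 that senses leucine, measured 8.25, 7.73 and 7.92 (log2) in transgenic mice and 8.87, 8.37 and 8.37 in WT mice. Every transgenic mouse was below every WT mouse, as in 4.31% of all probe sets. The log2 fold change was -0.57 (standard error 0.21, unadjusted p = 0.0318, limma's adjusted p = 1), just short of the log2 value of 0.585 that a 1.5-fold change requires. It ranged from -0.71 without transgenic replicate 1 to -0.40 without WT replicate 1. Sesn1 was past the study threshold without transgenic replicate 1, WT replicate 2 or WT replicate 3. In the other settings with 1 array left out, the unadjusted p from limma was above 0.05. It was 0.103 without transgenic replicate 2, 0.0816 without transgenic replicate 3 and 0.0911 without WT replicate 1.

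Foxo1, a transcription factor that induces autophagy genes in muscle, had 8.25, 8.30 and 8.75 in transgenic mice and 9.37, 8.68 and 8.68 in WT mice. Transgenic replicate 3 lay among the WT values, and the log2 fold change was -0.48 with an unadjusted p of 0.0964 from limma. A second Foxo1 probe set had -0.07 (standard error 0.33). Fnip1, a folliculin partner that binds AMPK, had 8.59, 8.43 and 8.55 in transgenic mice and 8.86, 8.84 and 8.66 in WT mice, without overlap and with a log2 fold change of -0.26. Mitf, a transcription factor of the TFEB family that was named after its values were seen, also had no overlap, with 8.01, 8.01 and 7.94 in transgenic mice and 8.53, 8.23 and 8.09 in WT mice, a log2 fold change of -0.30 with a standard error of 0.16. The genes of the mTORC1 and AMPK kinases themselves had smaller values, for example -0.20 for Mtor and 0.04 for Prkaa2.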

How the data were processed

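Gastrocnemius RNA of 3 transgenic and 3 WT mice was measured on 1 array each. The deposited values are log2 expression values that the authors normalized between arrays, with RMA named in the submitters' processing notes and GCOS and GeneSpring GX in the methods. The array medians still differed (5.706 to 5.884), so quantile normalization and median centring were run as alternatives, and the number of arrays limits the precision. Gene symbols came from GEO's platform annotation (23521 probe sets with 1 symbol, 1820 with several, 16004 with none), and older symbols were matched through RefSeq gene IDs.

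The contrast of transgenic over WT was fitted with limma 3.58.1 in R 4.3.3 (lmFit and eBayes, two-sided), over all 41345 probe sets with Benjamini-Hochberg adjustment. Calls at the threshold of the methods were taken from limma's p, and the methods' t-test was an alternative. The fit was tested on simulated data. No batch is given in the labels, which call the arrays biological replicates. The p-values from limma judge a difference against the spread between these mice, which eBayes draws toward that of all probe sets.

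Values of every array are given for those of the 38 genes with an unadjusted p under 0.05, no overlap of the groups, the 5 highest or 5 lowest fold changes, or the 3 largest SDs. Related genes are named for the 3 smallest p of each list. The genes and lists were chosen with earlier results of these data known. Alternatives were leaving out each array, array weights, the replicate number as a block, trend and robust eBayes, quantile normalization, median centring, leaving out dim probe sets and averaging the probe sets of a gene.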

Additional observations from a re-analysis of the deposited data

How the results depend on the processing

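None of the 38 genes passed the study threshold under any alternative, and the count of probe sets at an adjusted p under 0.05 was 0 in limma and in the t-test of the methods. At an unadjusted p under 0.05, limma counted 1197 probe sets and that t-test 1364. The count of all probe sets at the study threshold was 618, and it was 2610 with array weights, 281 with the methods' t-test and 146 without dim probe sets, where 20673 were tested. Leaving out 1 array gave 732 to 1335, with 1335 without WT replicate 2 and 1106 without WT replicate 1. The median log2 fold change of the 38 genes was -0.05, and -0.14 to 0.03 with 1 array left out. Without WT replicate 2 Atg12 had -0.06 and Fundc1 -0.04, and without WT replicate 3 Vmp1 had -0.02, all opposite in sign to their values over 6 mice. Other genes turned sign as well. Without WT replicate 1 the number of the 38 genes with lower means fell from 29 to 17. Pik3c3, for example, went from -0.05 to 0.07 and Atg10 from -0.02 to 0.13. With 1 array left out, Atg12 ranged from -0.06 to 0.22, Fundc1 from -0.04 to 0.27 and Vmp1 from -0.02 to 1.36. The causes were not tested.

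With the replicate number as a block, 921 probe sets and 0 of the 38 genes were past the study threshold and the median was -0.05. Deviations from the group means of same-numbered arrays correlated at 0.331, 0.396 and -0.166 for replicates 1, 2 and 3. The values for replicates 1 and 2 were above those of every unlike pair, the highest of which was 0.175. Deviations sum to 0 within a group, which ties these correlations together, so they cannot decide whether the numbers are pairs. The labels call the arrays biological replicates, and the main fit did not take the numbers as pairs. The leave-one-out values of Gabarap's second probe set, Vmp1, Atp6v1g1, Sesn1 and Atp6v1f were added after seeing the data.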

Other observations

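Probe sets on which a single array lay more than 1 log2 unit below every other array were counted over the whole table. There were 42, 37 and 107 of them for transgenic replicates 1, 2 and 3 and 313, 63 and 193 for WT replicates 1, 2 and 3. Among probe sets with 1 gene symbol and a mean at or above the median, WT replicate 3 had 59 and WT replicate 1 had 20, while transgenic replicates 1, 2 and 3 had 0, 2 and 0 and WT replicate 2 had 3. Vmp1, the second probe set of Gabarap and the lower probe sets of Atp6v1g1 are among the 59.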
